A study of Mus musculus with 16 samples.

Results

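The genes described here are transcripts that mark the mouse 2-cell embryo and the rare 2-cell-like cells of ESC cultures. They were taken by probe symbol, as *Tcstv1*, *Tcstv3*, *Tmem92*, *Zfp352* and every gene whose name starts with *Zscan4*, *Usp17l* or *Tdpoz*. Of 25697 probes on the array, 19 had such a symbol, and 12 of these were detected on both arrays of at least 1 line, with a detection p-value under 0.05. The 10 brightest by mean intensity over all arrays were kept, so the members were chosen by detection and brightness, and their level and detection are given as a description with no test. The 10 are 1 probe each for *Zscan4c*, *Tcstv3*, *Tcstv1*, *Tmem92*, *Usp17la*, *Tdpoz2*, *Tdpoz4*, *Tdpoz1*, *Tdpoz3* and *Tdpoz5*. *Tdpoz5*, the dimmest of them, had a mean intensity of 107.6, and the detected probes just outside were *Zfp352* at 107.5 and *Tdpoz8* at 107.1.

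RNA came from 8 lines of *Sox2*-null ESCs (129/Ola background) that all carry a mouse *Sox2* transgene under doxycycline control, with its tet transactivator, and DsRed, a red fluorescent reporter that is always on. Each line was hybridized to 2 Illumina bead arrays. The 3 S95 lines (clones 1, 2 and 4), the 2 S113 lines (clones 4 and 5) and the 2 SWT lines (clones 4 and 5) each grew out from 1 picked clone. Each clone took up a PiggyBac plasmid with mutant or wild-type human *SOX2*. They were grown under doxycycline (1 µg/mL), given to turn the mouse transgene off, and hygromycin (300 µg/mL), which selects for the plasmid. The TSS line had no doxycycline and expressed the mouse transgene. The labels call the S95 lines *Sox2* 95 mutants, while the study describes 3 profiled clones of the SOX2 double mutant R98E and M102E, which is impaired on *Utf1*-like motifs, and the S95 lines were taken to be these and not K95E and R98E, its other double mutant. The labels do not say whether the 2 arrays of a line came from separate cultures. *Nanog* had line levels of 10.60, 8.31 and 10.88 in S95-1, S95-2 and S95-4, of 11.50 and 11.42 in the S113 lines, of 11.89 in TSS and of 11.61 and 11.90 in the SWT lines (log2 intensity), so this pluripotency factor was lowest in S95-2. *Pou5f1*, which encodes OCT4, was at 11.54, 9.7 and 11.22 in the S95 lines, 11.51 and 11.65 in the S113 lines and 11.89 in TSS, against 11.5 and 11.6 in the SWT lines (brighter of its probes), and was lowest in S95-2 as well. Markers of extraembryonic endoderm were detected as well, and their values are given below.

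In the mouse, the 2-cell stage is when the embryo's own genome is first broadly transcribed, and a burst of genes is then expressed for a short time. Cultured ESCs enter a similar transcriptional state in a small and changing share of cells, in which *Zscan4* genes and the *Tcstv* genes are expressed together. *Zscan4* proteins, with zinc fingers and a SCAN domain, are known in mouse ESCs for their part in telomere elongation and genome stability. Several of these genes lie in tandem families of near-identical copies, so that a probe may also catch RNA of a related copy. The probe sequences were not used here.

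The start regions of these genes show how the families resemble each other and where they part. RefSeq windows of 250 bases before to 50 bases after the start site (GRCm38.p6) were matched for 5 of the 10 genes, *Zscan4c*, *Usp17la*, *Tdpoz1*, *Tdpoz4* and *Tdpoz5*, and for *AF067061*, a neighbour of the *Tcstv* genes that is described below. The windows are shown for *Zscan4c*, the brightest gene, and for *Tdpoz1* and *AF067061*, which lie on different chromosomes and share a run of 16 bases. Capitals mark TATAAA in *Zscan4c*, and TATATAA and the shared run AACACACACCTTTAAT in the other two.
Zscan4c, chr7:11005495-11005794, plus strand: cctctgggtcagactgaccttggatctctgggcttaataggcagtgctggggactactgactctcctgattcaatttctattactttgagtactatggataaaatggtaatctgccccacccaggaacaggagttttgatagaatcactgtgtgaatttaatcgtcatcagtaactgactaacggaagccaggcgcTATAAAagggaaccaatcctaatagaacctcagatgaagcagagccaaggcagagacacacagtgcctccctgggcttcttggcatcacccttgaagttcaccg
Tdpoz1, chr3:93676234-93676533, minus strand: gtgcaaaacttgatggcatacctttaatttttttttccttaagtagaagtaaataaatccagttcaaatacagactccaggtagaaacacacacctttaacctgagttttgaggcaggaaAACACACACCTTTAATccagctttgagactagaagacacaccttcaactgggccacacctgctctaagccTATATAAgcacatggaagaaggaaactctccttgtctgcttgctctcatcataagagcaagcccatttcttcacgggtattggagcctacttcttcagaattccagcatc
AF067061, chr13:120262845-120263144, plus strand: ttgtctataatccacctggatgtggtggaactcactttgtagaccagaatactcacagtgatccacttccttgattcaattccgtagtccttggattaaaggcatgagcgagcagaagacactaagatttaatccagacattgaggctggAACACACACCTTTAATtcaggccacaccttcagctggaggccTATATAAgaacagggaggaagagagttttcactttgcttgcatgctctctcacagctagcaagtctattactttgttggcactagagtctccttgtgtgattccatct
The *Zscan4c* match began 54 bases before the start site, and TATATAA began 60 bases before it in *Tdpoz1* and 58 bases before it in *AF067061*. The shared run began 130 and 100 bases before the start sites of *Tdpoz1* and *AF067061*. On either strand, TATAAA was present in 13.6% of all 32851 RefSeq windows of this length, TATATAA in 3.24% and the 16-base run in 0.0152% (5 windows). TATATAA and the run were picked after the sequences had been seen, and TATAAA does not occur inside TATATAA. Of the 5 member windows, 0 held the octamer ATGCAAAT bound by OCT4 (1.74% of all windows), 0 held CATTGT, a core of SOX sites (12.6%), and 0 held TGCACAC, a motif given for mouse ZSCAN4 (4.4%). The *Zscan4c* window was 97.2% identical to that of *Zscan4d* over 289 bases and 99.3% identical to that of *Zscan4f* over 277 bases. The *Tdpoz* windows differed far more, with 44.9% of bases identical between *Tdpoz4* and *Tdpoz5* in the best ungapped overlay.

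*Zscan4c* (chr7:11005745-11010547) was the brightest gene and was detected on all 16 arrays. Its level on the 2 arrays was 11.08 and 11.13 in S95-1, 8.0 and 7.7 in S95-2, and 9.77 and 9.94 in S95-4 (log2 intensity, as all levels below). It was 9.76 and 9.84 in S113-4, 10.58 and 10.61 in S113-5, and 8.54 and 8.50 in TSS, against 7.89 and 7.54 in SWT-4 and 6.62 and 6.38 in SWT-5. The arrays of a line lay close together and the lines far apart, so that the highest line mean was 24.3-fold over the lowest. S95-2 stood apart from the other S95 clones and lay beside SWT-4, from which it differed by 0.14 (adjusted p = 0.38, limma over arrays). The SWT clones were unequal for this gene, with SWT-4 above SWT-5 by 1.21 (adjusted p = 1.9e-05, limma over arrays).

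*Tcstv3* (chr13:120316862-120318261) and *Tcstv1* (chr13:119893387-119894785), members of the 2-cell stage variable group known to lengthen telomeres in mouse ESCs, were also detected on all 16 arrays. *Tcstv3* was at 10.59 and 10.69 in S95-1, 7.82 and 7.99 in S95-2, and 10.11 and 10.02 in S95-4. It was at 9.06 and 9.10 in S113-4, 9.48 and 9.34 in S113-5, and 7.96 and 7.95 in TSS, against 6.30 and 6.59 in SWT-4 and 6.09 and 6.38 in SWT-5. Every array of the mutant lines and of TSS was above every SWT array, and the gap between clones of 1 construct was widest for S95. *Tcstv1* had line means of 10.11, 7.32 and 9.24 in S95-1, S95-2 and S95-4, of 8.18 and 8.74 in S113-4 and S113-5, and of 7.14 in TSS, against 5.52 and 5.33 in SWT-4 and SWT-5. The order of the lines was the same for both genes except that S95-2 and TSS changed places, and these neighbours did not differ beyond the spread between arrays for either gene (adjusted p = 0.73 for *Tcstv3* and 0.46 for *Tcstv1*, limma over arrays). The S113 clones did not pass the test against each other either, at 0.08 for *Tcstv3* and 0.068 for *Tcstv1*, nor did the SWT clones, at 0.31 and 0.61 (adjusted p, limma over arrays). The highest line was 21.2-fold over the lowest for *Tcstv3* and 27.5-fold for *Tcstv1*.

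**Figure D1:**
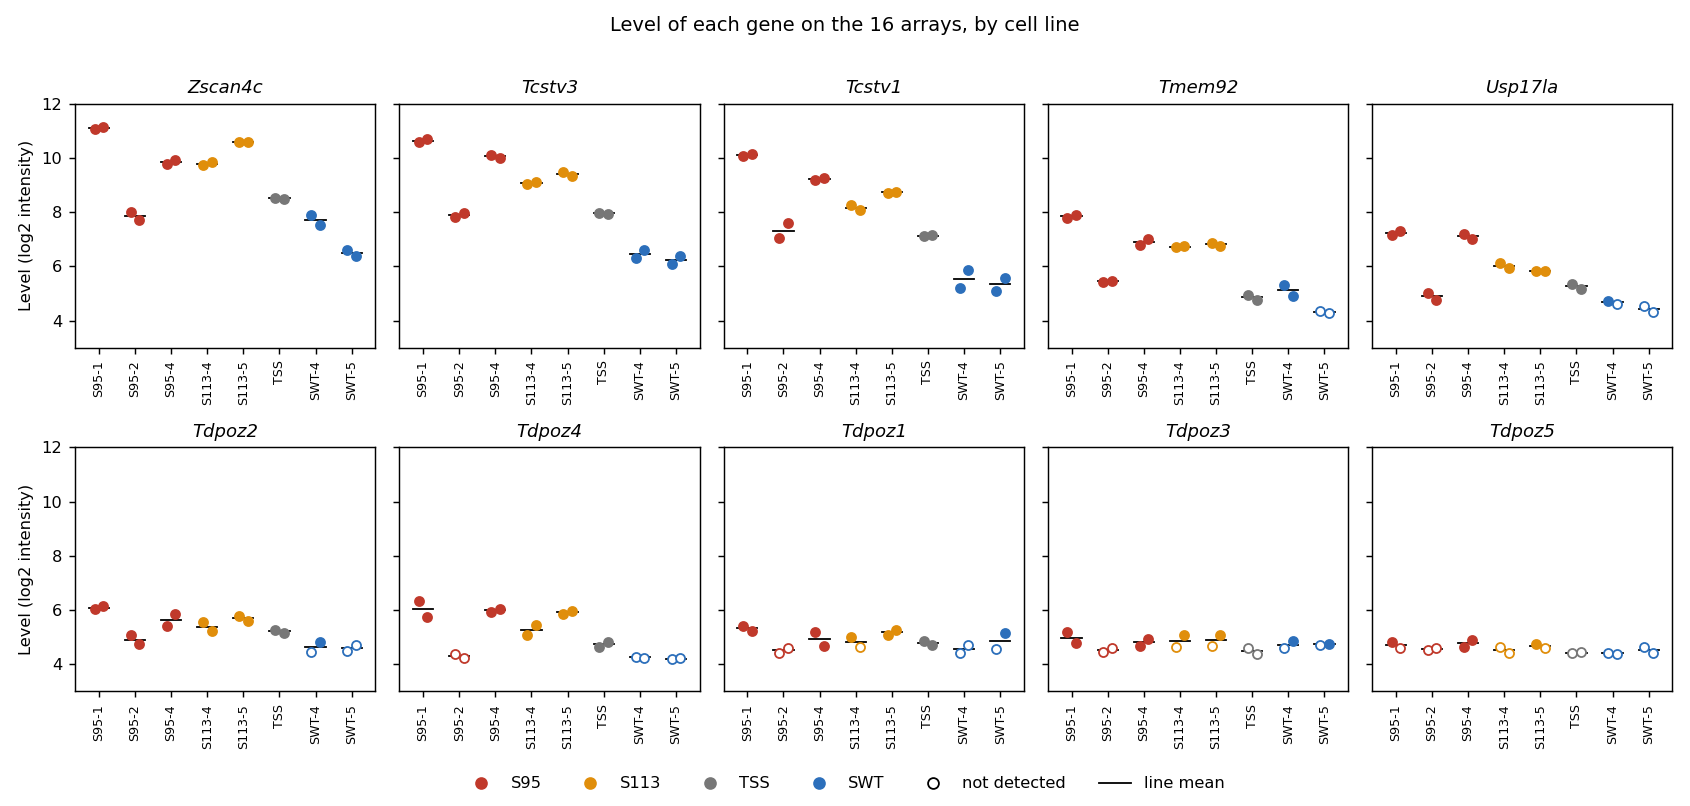
Level of the 10 genes on each array (y axis, log2 intensity after background correction and quantile normalization), by cell line (x axis, 2 arrays each). Filled points were detected, open points were not, and bars are line means. S95-2 lies well below S95-1 and S95-4 for the 5 brightest genes, and *Tdpoz1*, *Tdpoz3* and *Tdpoz5* stay near the lower end in every line.

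*Tmem92* (chr11:94777217-94782703), which encodes a transmembrane protein, had line means of 7.85, 5.46 and 6.90 in S95-1, S95-2 and S95-4, of 6.74 and 6.81 in the S113 lines and of 4.86 in TSS, against 5.12 in SWT-4 and 4.31 in SWT-5, where it was detected on neither array. *Usp17la* (chr7:104857016-104862667), a deubiquitinating enzyme also known as Dub1, had 7.23, 4.90 and 7.11 in S95-1, S95-2 and S95-4, 6.03 and 5.83 in the S113 lines and 5.26 in TSS, against 4.68 and 4.44 in the SWT lines, where it was detected on 1 of 4 arrays. S95-1 and S95-4 were thus nearly equal for *Usp17la* (difference 0.12, adjusted p = 0.58, limma over arrays), while they differed by 0.94 for *Tmem92* (adjusted p = 0.00018, limma over arrays). S95-2 was below TSS for *Usp17la* and above it for *Tmem92*.

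The *Tdpoz* genes encode proteins with a TRAF domain and a POZ domain and lie together on chromosome 3. *Tdpoz4* (chr3:93796398-93797510) had line means of 6.02, 4.29 and 5.99 in S95-1, S95-2 and S95-4, of 5.24 and 5.91 in the S113 lines and of 4.72 in TSS, against 4.25 and 4.21 in the SWT lines. It was detected on 4 of 6 S95 arrays and all 4 S113 arrays, against 0 of 4 SWT arrays, and both arrays of S95-2 were without detection. *Tdpoz2* (chr3:93651542-93652686) had 6.09, 4.91 and 5.62 in S95-1, S95-2 and S95-4, 5.38 and 5.69 in the S113 lines and 5.21 in TSS, against 4.63 and 4.6 in the SWT lines. *Tdpoz1*, *Tdpoz3* and *Tdpoz5* were detected on both arrays of 4, 2 and 1 of the 8 lines, and their highest line was 1.76-fold, 1.41-fold and 1.3-fold over their lowest. A second probe for *Tdpoz4*, which was detected on both arrays of 0 lines and so is no member, had levels between 4.26 and 4.75 and did not show this spread.

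A comparison of the lines over the 16 arrays, in which the spread is that between the 2 arrays of a line, found a difference among the 8 lines for 8 of the 10 genes (F test of limma, adjusted p under 0.05). *Tdpoz3* (adjusted p = 0.16) and *Tdpoz5* (0.092) did not pass. Since 85.2% of all 13680 probes tested passed as well, the count is close to the background. Of 280 tests of a gene in a pair of lines, 173 passed (61.8%), against 42.5% over all probes and pairs. These tests reuse the same 8 lines and genes whose levels run together, so they are not separate results and the shares are descriptions. *Zscan4c* differed in 26 of the 28 pairs, *Tcstv3* and *Tcstv1* in 25 each, *Tmem92* and *Usp17la* in 24 each, *Tdpoz4* in 22, *Tdpoz2* in 17, *Tdpoz1* in 6, and *Tdpoz3* and *Tdpoz5* in 2 each. S95-1 was the highest line for 9 of the 10 genes, with *Tdpoz5* the exception, and SWT-5 was the lowest for 7. These counts are descriptions only, since several members passed detection only outside SWT, and the share over all probes was not computed. *Tdpoz3*, among the 9, entered the set through detection in S95 lines alone, and its lines did not pass the F test.

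Clones of a single construct were compared in the same way. S95-1 and S95-2 differed in 9 of the 10 genes, where 51.4% of all probes did, and S95-2 and S95-4 in 7, where 46.2% did. S95-1 and S95-4 differed in 4 genes (13.9% of all probes), S113-4 and S113-5 in 2 (17.4%), which were *Zscan4c* and *Tdpoz4*, and SWT-4 and SWT-5 in 2 (11.7%), which were *Zscan4c* and *Tmem92*. *Zscan4c* did not order the clones as *Tcstv3* did, since it was higher in S113-5 than in S95-4 by 0.74 while *Tcstv3* was lower there by 0.66 (adjusted p = 0.00029 and 0.00043, limma over arrays).

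With the line as the replicate, the S95 lines were set against the SWT lines to ask how the mutant that is impaired on *Utf1*-like motifs differed from wild-type SOX2. *Tcstv1* and *Tcstv3* rose in S95, by 3.46 ± 0.73 and 3.2 ± 0.72 on the log2 scale (standard error, 3 lines against 2), which is 11-fold and 9.17-fold (adjusted p = 0.022 and 0.027, limma). These were 2 of the 10 genes, and 0 fell, where 20.2% of all probes passed (1310 higher and 1455 lower). In RNA of a whole culture, more cells in a 2-cell-like state and more RNA per such cell cannot be told apart. *Zscan4c* had a log2 difference of 2.50 ± 0.89 (adjusted p = 0.088), *Tmem92* of 2.02 ± 0.63 (0.064), *Usp17la* of 1.85 ± 0.66 (0.088) and *Tdpoz2* of 0.93 ± 0.32 (0.084, limma), and these did not pass. *Tdpoz4* was not detected in SWT. Its S95 mean was 1.63-fold over the lowest signal of detected probes, and its difference from SWT did not pass (adjusted p = 0.14, limma). Of the S95 lines, S95-2 was itself without detection, at 4.29. All 3 S95 clones were above both SWT clones for 8 of the 10 genes, as they were for 27.6% of all probes, and the median log2 difference was 1.53 for the 10 genes and -0.01 for all probes. This count and median are descriptions only, since several members passed detection only outside SWT. *Tdpoz3* and *Tdpoz5*, the second of which is among the 8, entered the set through detection in S95 lines alone. *Usp17la*, *Tdpoz2*, *Tdpoz4* and *Tdpoz1* passed on both arrays of mutant lines or TSS but of neither SWT line, and *Tdpoz4* had no detection in SWT.

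The S95 result depended on clones. Without S95-2, 7 of the 10 genes passed, where 30% of all probes did, and *Tcstv1* differed by 4.25 (adjusted p = 0.00062, limma). Without S95-4, SWT-4 or SWT-5, 0 passed, with adjusted p-values for *Tcstv1* of 0.067, 0.13 and 0.14 and for *Tcstv3* of 0.079, 0.14 and 0.15. In these fits 8.85%, 2.38% and 2.19% of all probes passed, so calls were fewer over the whole array. Without either S113 line, which adds to the estimate of the spread, *Tcstv1* passed alone (0.045) and *Tcstv3* was at 0.054 (limma), with 12.8% of all probes passing.

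**Figure D2:**
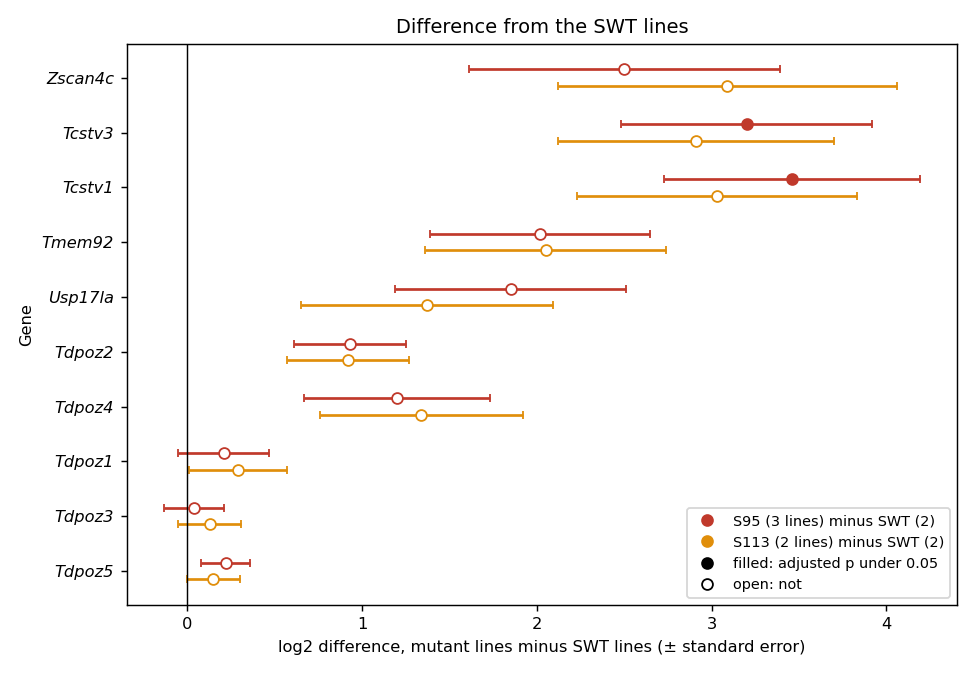
log2 difference from the SWT lines (x axis, with standard error) for each gene (y axis) in the 3 S95 lines and the 2 S113 lines. *Tcstv1* and *Tcstv3* in S95 are the filled points, with an adjusted p under 0.05, and the S95 and S113 bars overlap for every gene.

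The S113 lines carry a mutant that is impaired on *Fgf4*-like motifs, and they were compared with the same SWT lines. *Zscan4c* had a log2 difference of 3.09 ± 0.97, *Tcstv1* of 3.03 ± 0.80, *Tcstv3* of 2.91 ± 0.79 and *Tmem92* of 2.05 ± 0.69 (standard error, 2 lines against 2). Of the 10 genes, 0 passed, the smallest adjusted p being 0.33 for *Tcstv1* (limma), and 0 of all 13680 probes passed (0%), where the smallest was 0.076. At an unadjusted p under 0.05 there were 5 of the 10 genes and 8.96% of all probes. Both S113 clones were above both SWT clones for 9 of the 10 genes, against 25.2% of all probes. This count is a description, since *Usp17la*, *Tdpoz2*, *Tdpoz4*, *Tdpoz1*, *Tdpoz3* and *Tdpoz5* passed detection on both arrays of neither SWT line. Among the 9, *Tdpoz3* and *Tdpoz5* differed by only 0.13 and 0.15. The S113 mean of *Tdpoz4* was 1.8-fold over the lowest signal of detected probes, and its difference from SWT did not pass (adjusted p = 0.56, limma). Without S95-2, whose spread enters the shared estimate, 6 of the 10 genes and 1.29% of all probes passed in S113.

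Between S95 and S113 lines, 0 of the 10 genes passed, the smallest adjusted p being 0.64 (limma), while 7.8% of all probes did. At an unadjusted p under 0.05 there were 30.4% of all probes and 0 of the 10 genes. For 0 of them were all S95 clones above both S113 clones (24.4% of all probes). S95-2 lay below the S113 clones for each of the 7 brightest genes, and S95-4 lay below S113-5 for *Zscan4c*, *Tdpoz2*, *Tdpoz1* and *Tdpoz3*. The log2 difference was -0.60 ± 0.89 for *Zscan4c*, 0.29 ± 0.72 for *Tcstv3* and 0.43 ± 0.73 for *Tcstv1*, with a sign that turned for each when a clone was left out. Without S95-2, 3 of the 10 genes and 16.5% of all probes passed. TSS is a single line, whose spread was borrowed from the other groups, and it had log2 differences from SWT of 1.71 ± 0.97 for *Tcstv1*, 1.62 ± 0.97 for *Tcstv3* and 1.42 ± 1.19 for *Zscan4c*. Of the 10 genes 0 passed, of all probes 0 passed as well (0%), and 0 of the 10 had an unadjusted p under 0.05 (10% of all probes).

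Across the 8 line means, *Tcstv1* and *Tcstv3* had a Pearson r of 0.997. Among the 7 brightest genes r lay between 0.884 and 0.997 over 21 pairs, and it lay between 0.559 and 0.831 over the 24 pairs with *Tdpoz1*, *Tdpoz3* or *Tdpoz5*. These are descriptions over 8 lines that share constructs and a parental line.

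**Figure D3:**
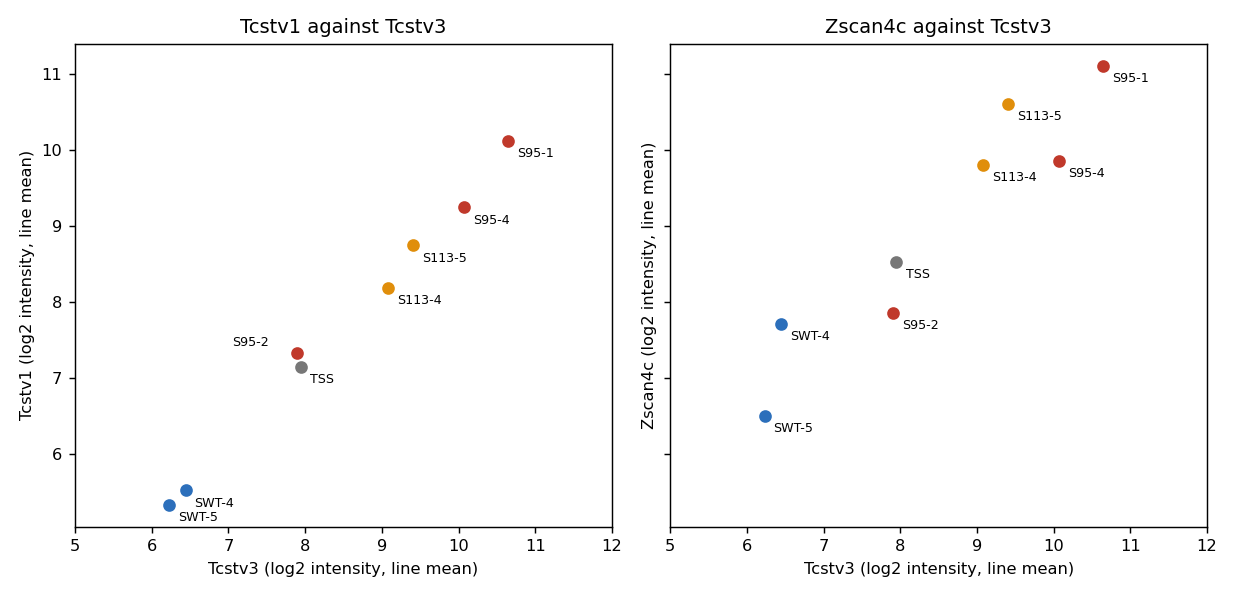
Line means of *Tcstv1* (left) and *Zscan4c* (right) on the y axes against *Tcstv3* on the x axes, all as log2 intensity, with 1 point for each of the 8 lines. The *Tcstv1* points follow a line, with r of 0.997, while *Zscan4c* is higher in S113-5 than in S95-4 although *Tcstv3* is lower there.

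The genes outside the set whose levels ran most like those of *Tcstv3* were its own neighbours. *BC147527* and *Gm20767* had r of 0.994, *AF067061* and *B020031M17Rik* of 0.985, and *Tcaf2* and *Gm5662*, on chromosomes 6 and 12, of 0.977 and 0.968 over the 8 lines. Of 10000 other genes tested, 49 had r of at least 0.9 with *Tcstv3* (0.49%). The 7 tested genes from *AF067063* (chr13:119827961-119830217) to *Tcstv3* lie within 490 kb, and the 6 other than *Tcstv3* had r between 0.957 and 0.997 with it. Their line levels spanned 2.08 to 4.78 on the log2 scale. The 4 tested genes that precede them within 1 Mb of *Tcstv1*, *Paip1*, *4833420G17Rik*, *Hmgcs1* and *Zfp131*, spanned only 0.48 to 0.88, with r between -0.65 and 0.637. *Zfp131* (chr13:119765186-119791477), a zinc finger gene that ends 36 kb before *AF067063*, was at 9.65, 9.22 and 9.70 in S95-1, S95-2 and S95-4, 9.22 and 9.45 in the S113 lines and 9.62 in TSS, against 9.26 and 9.28 in the SWT lines.

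Of the 5 genes of the stretch other than *Tcstv1* and *Tcstv3*, 3 rose in S95 against SWT, where 20.2% of all probes passed. *AF067061* (chr13:120263095-120264517) was at 10.50, 7.76 and 9.47 in S95-1, S95-2 and S95-4, 9.25 and 9.48 in the S113 lines and 7.81 in TSS, against 6.74 and 5.98 in the SWT lines, and differed by 2.88 ± 0.72 (adjusted p = 0.035, limma). *BC147527* differed by 2.78 ± 0.65 (0.029) and *Gm20767* by 2.76 ± 0.71 (0.038, limma), while *B020031M17Rik* (1.69 ± 0.54, 0.068) and *AF067063* (1.37 ± 0.55, 0.12) did not pass. All 3 calls were lost with an offset of 50, with no detection filter, without S95-4, without either S113 line or either SWT line, and with S95 clones 1 and 4 as 1 line (adjusted p between 0.053 and 0.2, limma). In S113 against SWT the same 5 had log2 differences of 3.01, 2.50, 2.64, 1.58 and 1.35, and 0 passed. Copies in this stretch may share signal between probes.

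**Figure D4:**
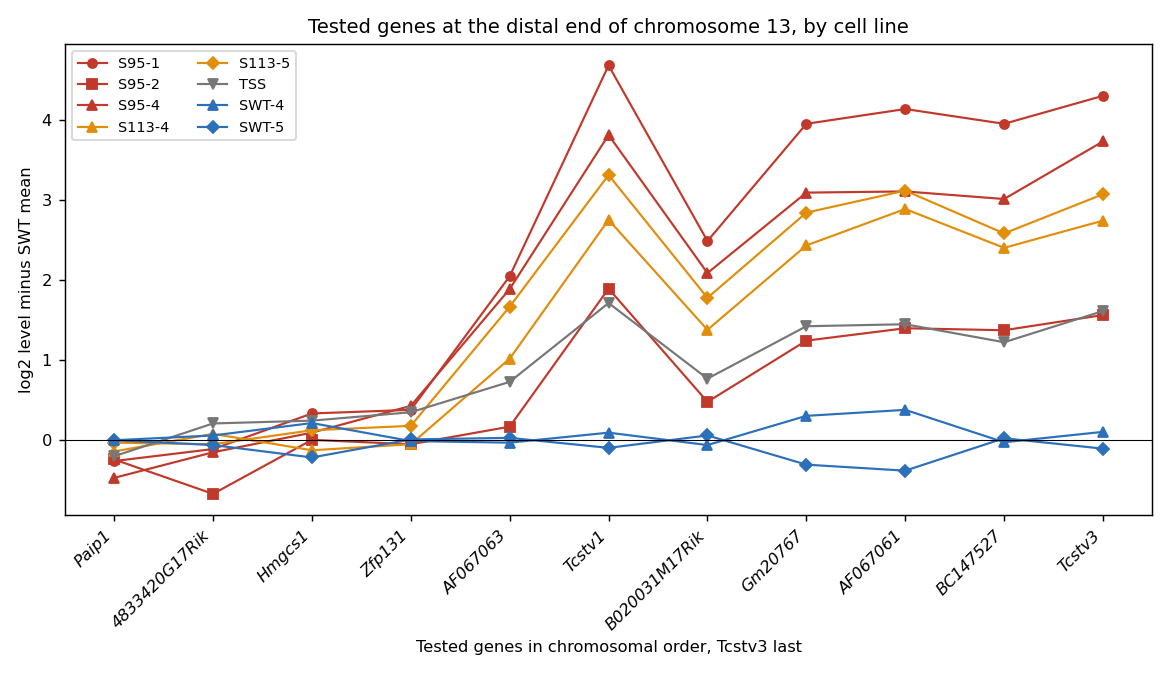
Level of each tested gene minus its mean in the SWT lines (y axis, log2) for the last 11 tested genes of chromosome 13 in their order along it (x axis), with 1 line for each of the 8 cell lines. The 4 genes up to *Zfp131* vary little, apart from a low *4833420G17Rik* in S95-2, and from *AF067063* on S95-1 is highest, S95-4 and the S113 lines follow, and TSS and S95-2 lie between them and the SWT lines.

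Other genes of the 2-cell embryo, from a list made with earlier results of these data known, were read beside the set. Of 28 genes, 10 were tested, and in S95 against SWT 1 rose (*AF067061*) and 0 fell, where 20.2% of all probes passed, with a median of 0.98 against -0.01 for all probes. *Gm5662* had a log2 difference of 2.17 ± 0.75 (adjusted p = 0.081) in S95 and 2.62 ± 0.82 (0.41, limma) in S113. *Ddit4l* ran the other way, at 6.78, 8.86 and 7.40 in S95-1, S95-2 and S95-4, 8.25 and 8.28 in the S113 lines and 7.80 in TSS, against 8.28 and 8.25 in the SWT lines. In S113 the median of the list was 0.48 and 0 genes passed.

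Of 31 tested genes known to hold the 2-cell-like state down in mouse ESCs, 2 rose and 7 fell in S95, where 20.2% of all probes passed (1310 higher and 1455 lower), with a median of -0.41. *Zfp42*, which encodes REX1, fell by 2.07 ± 0.45 (adjusted p = 0.024), the histone demethylase gene *Kdm1a* fell by 0.62 ± 0.15 (0.033), while *Rcor1*, a corepressor partner of KDM1A, rose by 0.72 ± 0.14 (0.016) and *Ehmt2*, a histone methyltransferase, by 0.75 ± 0.19 (0.035, limma). In S113 0 of the 31 passed and the median was 0.05. The 3 S95 lines had list medians of -0.26, -0.54 and -0.31 relative to SWT in clones 1, 2 and 4. S95-2, with the lowest of these, also had the lowest *Tcstv* levels of the 3. The part of the listed genes in the *Tcstv* levels was not tested. Of 5 tested activators of the state, *Tbx3*, a T-box factor, rose by 0.88 ± 0.23 (adjusted p = 0.037) and the topoisomerase gene *Top2a* fell by 0.89 ± 0.15 (0.011), and *Dppa3*, a maternal factor, had -2.41 ± 1.16 (0.18, limma).

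Telomere maintenance and DNA methylation genes were read because the 2-cell-like state is known for long telomeres and low methylation. Of 12 tested telomere genes, 0 rose and 2 fell in S95, *Mre11a* by 0.68 ± 0.18 (adjusted p = 0.04) and *Ctc1* by 0.63 ± 0.17 (0.046, limma), with a median of -0.33, and this count is near the 20.2% of all probes that passed. Of 4 tested DNA methylation genes, 1 rose, the de novo methyltransferase gene *Dnmt3b*, by 1.37 ± 0.21 (adjusted p = 0.0092, limma). Its level was 12.95, 12.43 and 13.06 in S95-1, S95-2 and S95-4, 12.58 and 12.81 in the S113 lines and 12.64 in TSS, against 11.44 and 11.45 in the SWT lines, and its r with *Tcstv3* was 0.933 over the 8 lines. Of 10 tested germ line genes, 1 rose and 3 fell, and *Dazl*, which encodes an RNA-binding protein of germ cells, fell by 2.45 ± 0.47 (adjusted p = 0.017, limma). In S113, 0 genes of these lists passed.

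Genes of other states moved between the same lines. Of 14 tested naive pluripotency genes, 0 rose and 6 fell in S95 (20.2% of all probes passed), with a median of -1.71, and the list median relative to SWT was -1.05, -2.63 and -1.24 in S95-1, S95-2 and S95-4, -0.16 and -0.24 in the S113 lines and 0.21 in TSS. Of 17 tested extraembryonic endoderm markers, 12 rose and 0 fell, with a median of 3.38, led by *Dab2* (5.18 ± 0.42, adjusted p = 0.002, limma). Their summed intensity was 37090, 69330 and 40930 in S95-1, S95-2 and S95-4, 7112 and 22290 in S113-4 and S113-5 and 6545 in TSS, against 3674 and 5511 in SWT-4 and SWT-5, with 16, 17, 16, 13, 15, 12, 10 and 13 of 17 markers detected on both arrays in the same order. Of 10 tested trophectoderm markers, 7 rose and 0 fell (median 1.69), and of 7 tested fibroblast markers 0 rose and 1 fell (median 0.40). Among the S95 clones alone, S95-2 had the highest endoderm marker sum and the lowest *Zscan4c* and *Tcstv* levels. SWT-5 was likewise above SWT-4 in the sum and below it in these levels, while S113-5 was above S113-4 in both. The *Tcstv* differences within S113 and within SWT did not pass (limma over arrays). Across all lines, r of the tested endoderm markers with *Tcstv3* ran from -0.171 to 0.816 (*Dab2*), and only the lowest was negative. The part of cells with endoderm markers in the levels of the 2-cell-like genes was not tested.

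The *Sox2* probe of this mouse array had levels of 5.43, 6.32 and 5.02 in S95-1, S95-2 and S95-4, 7.67 and 8.04 in the S113 lines and 6.39 in TSS, against 4.77 and 4.88 in the SWT lines. The lines with the lowest *Sox2* signal, the SWT lines, were the lowest for *Tcstv1* and *Tcstv3*. S95-4 and S95-1, the highest for both, came next at the *Sox2* probe. The part of SOX2 level in the levels of the 2-cell-like genes was not tested. Both S113 lines, which had doxycycline, were above TSS at this probe. How far the probe catches the human construct's RNA, and whether the mouse transgene was off in these lines, was not tested.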

How the data were processed

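The authors deposited scanner intensities for each probe, summarized with BeadStudio 3.2 and not normalized, with a detection p-value from control probes, and, separately, normalized log2 values. The submitters' processing notes name RMA and lumi without their steps. Intensities were background corrected with the detection p-values (offset 16), log2 transformed and quantile normalized with neqc (limma 3.58.1, R 4.3.3). A single gene symbol was given for 23978 of the 25697 probes, and RefSeq held the Entrez identifier of 23962. Tests covered the 13680 such probes that at least 1 line had detected on each of its arrays (detection p-value under 0.05).

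For comparisons between constructs, levels were averaged over a line's 2 arrays, and group means were fitted over the 8 lines with lmFit and eBayes of limma. Lines were compared in a second fit over the 16 arrays, whose p-values measure only the spread between arrays, which may be technical. P-values were two-sided and Benjamini-Hochberg adjusted over all probes, at a threshold of 0.05. The fits were tested on simulated data with the same spread between lines for all probes and an equal shift in every S95 clone. The brighter members had S95 clones far apart, a case that this simulation does not cover. The precision is limited by the number of arrays (median intensity 100.1 to 117.2, 48.6% to 52.5% of probes detected, r of 0.9934 to 0.9972 between the arrays of a line).

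The members and gene lists were chosen with earlier results of these data known. Every member, *Sox2*, *Nanog* and *Pou5f1* are named. Other names were drawn from up to 4 genes of each list with the smallest p in S95 against SWT. They were also drawn, for each member, from the 8 genes most alike over the lines (SD of at least 0.5) and its nearest tested neighbours. Not every gene allowed by this rule is given. *Ddit4l* and the second *Tdpoz4* probe were named outside this rule, after their values were seen. The alternatives were the deposited log2 values, an offset of 50, a median shift, other detection filters, 1 probe per gene, arrays as units, other moderation, leaving out TSS or any line, and, chosen after seeing the data, S95 clones 1 and 4 averaged as 1 line.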

Additional observations from a re-analysis of the deposited data

How the results depend on the processing

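Of 712 values of the 36 log2 differences followed under other settings, 706 kept their sign. The 6 that turned came from clones left out or joined. Leaving out each line in turn gave *Zscan4c* -1.35 to 0.28, *Tcstv3* -0.26 to 1.11 and *Tcstv1* -0.18 to 1.22 in S95 against S113, with the sign turned without S95-2 for *Zscan4c* and without S95-1 for the other genes, and *Tdpoz3* -0.07 to 0.16 in S95 against SWT, turned without S95-1. With S95 clones 1 and 4 as 1 line, *Tcstv3* in S95 against S113 was -0.12 and *Tdpoz3* in S95 against SWT was -0.02. For S95 against SWT, 2 genes passed with the deposited log2 values, an offset of 50, a median shift, detection on 2 lines, 1 probe per gene, trend and robust moderation or no TSS. With no detection filter, which tests more probes, 0 genes and 9.19% of all probes passed (smallest adjusted p of a member 0.059, limma), and 1 passed with clones 1 and 4 as 1 line (15%). Leaving out each line gave 0 to 7 genes for S95 against SWT, 0 to 6 for S113 against SWT and 0 to 3 for S95 against S113.

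With arrays as units and the line as a random block, no replicate block, 7 genes passed in S95 and 4 in S113 against SWT, with 31.7% and 1.96% of all probes. With the array number as a replicate block added, the counts were again 7 and 4 (30.9% and 1.74% of all probes). With all arrays as independent, 7 and 6 passed (52.9% and 10.1%). Correlations of array deviations between lines lay from -0.17 to 0.18 over 28 pairs of lines, with a median of 0 and 3 above 0.1. They show no pairing by array number common to all lines. Whether some lines share a batch of arrays cannot be told from them. In the comparison of lines, 7 or 8 of the 10 genes passed and 163 to 175 of the pair tests, 172 with the replicate block. Of the 8 genes most like *Tcstv3*, 6 to 8 were shared when a line was left out. Precision is limited by 1 to 3 lines a group, and levels of the dimmer *Tdpoz* genes lie at the detection floor.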
